A study of Rattus norvegicus with 9 samples.

Results

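The circadian clock genes described here are Per1, Per2, Per3, Cry1, Cry2, Clock, Arntl (also called Bmal1), Nr1d1, Dbp and Bhlhe40 (also called Bhlhb2), 10 of the 25785 genes or features tested on rat arrays. Every array probe that carried a member's name, or its other name, was taken, which gave 12 probes, and 11 of them passed the filter on dim signals. The study set neuronal cultures in which activity had resumed against silenced ones. The neurons came from dissociated cortices of prenatal rats, grew in Neurobasal medium supplemented with B27 or NS21, and were between 11 and 15 days in culture when used. All 9 samples were held for 48 h in tetrodotoxin (TTX), a sodium channel blocker that stops action potentials. The TTX group (3 arrays) was collected in the toxin. The W15 group (3 arrays) was collected 15 min after TTX had been washed away in 3 rounds, and the W45 group (3 arrays) after 45 min. No untreated culture is among the groups, so each comparison is against silenced neurons, and the labels name no strain, sex or number of animals. The labels do not say whether the 3 arrays of a group came from separate cultures, so the p-values measure the spread between these arrays, which may be technical.

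The mammalian clock is a transcriptional feedback loop. CLOCK and ARNTL pair and activate genes with an E-box, among them the Per and Cry genes, whose protein products return to the nucleus and repress the pair. NR1D1 (REV-ERB alpha) represses Arntl, BHLHE40 (DEC1) competes at E-boxes, and DBP activates genes with a D-box as an output of the loop. Outside that loop, Per1 is also known as a gene that signalling through the transcription factor CREB induces rapidly, for example in the suprachiasmatic nucleus after light.

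Each value is the log2 of a probe's processed signal minus the log2 of the 75th percentile of its array, so 0 is the level of that percentile and 1 unit is a doubling. Levels of different probes are not comparable, and only differences between groups are read. The Per1 values rest on 1 probe, which the array files place at chr10:55881463-55882047 in the rn3 build, an interval of 585 bases for a probe of 60 bases. Its sequence is shown because the largest difference among the members is the difference this probe measured.
Per1 probe: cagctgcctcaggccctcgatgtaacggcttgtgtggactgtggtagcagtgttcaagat
Per3 had 3 probes, and 2 of them share a run of 22 bases, in capitals below. They are shown because they gave opposite signs at 45 min although they overlap in sequence. The rn3 placement of the dimmer one spans 9 bases, and those of the Clock and Nr1d1 probes span 1051 and 355 bases.
Per3 brighter probe: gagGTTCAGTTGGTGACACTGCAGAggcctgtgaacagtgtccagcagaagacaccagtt
Per3 dimmer probe: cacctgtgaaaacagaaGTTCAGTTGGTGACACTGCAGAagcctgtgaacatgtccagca

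The start-site windows of the members were read for the response elements through which the loop and CREB are known to act. RefSeq windows of the GRCr8 assembly, 250 bases before to 50 bases after an annotated start, were at hand for 9 of the 10 members, in 11 windows, and none was used for Cry1. Both strands were searched for the E-box CACGTG, the cAMP response element (CRE) TGACGTCA and its short form TGACG, the short CRE (which every full element also contains), the D-box TTATGTAA or TTACGTAA, the core TAGGTCA bound by NR1D1 and ROR proteins, and the CArG box. Of all 33469 windows in the table, 6.42% held the E-box, 1.83% the full CRE, 21.2% the short CRE, 1.01% the D-box, 2.63% the NR1D1 and ROR core and 1.64% the CArG box. Among the members, the E-box was found in 1 of the 2 Nr1d1 windows and in the Bhlhe40 window, the D-box in the Per2 window, the core in the Arntl window, and the short CRE in the Per2 and Per3 windows. These 3 stretches are shown because they hold the E-box and D-box matches of the members, in capitals. The stretch with the core of Arntl is not printed.
Per2, D-box, chr9:99497158-99497205, minus strand, GRCr8: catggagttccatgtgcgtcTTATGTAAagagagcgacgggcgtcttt
Nr1d1, E-box, chr10:84229620-84229665, minus strand, GRCr8: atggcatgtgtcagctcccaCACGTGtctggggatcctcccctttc
Bhlhe40, E-box, chr4:143174210-143174255, plus strand, GRCr8: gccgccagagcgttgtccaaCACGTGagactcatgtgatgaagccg

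The D-box of Per2 lay at position -192 from its window's start site, the E-box of Nr1d1 at -191, the E-box of Bhlhe40 at -220 and the core of Arntl at -16. The windows of Per1, Cry2, Clock and Dbp held none of the searched letters. The start site of the Per1 window lies 5374 bases inside the annotated gene, that of the Nr1d1 window with the E-box 2358 bases inside, that of 1 of the 2 Clock windows 37798 bases inside and that of the Per3 window 443 bases inside. These 4 windows do not cover the first base of their gene. A match is a description of the sequence, and no match says only that these letters were not in the window.

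**Figure D1:**
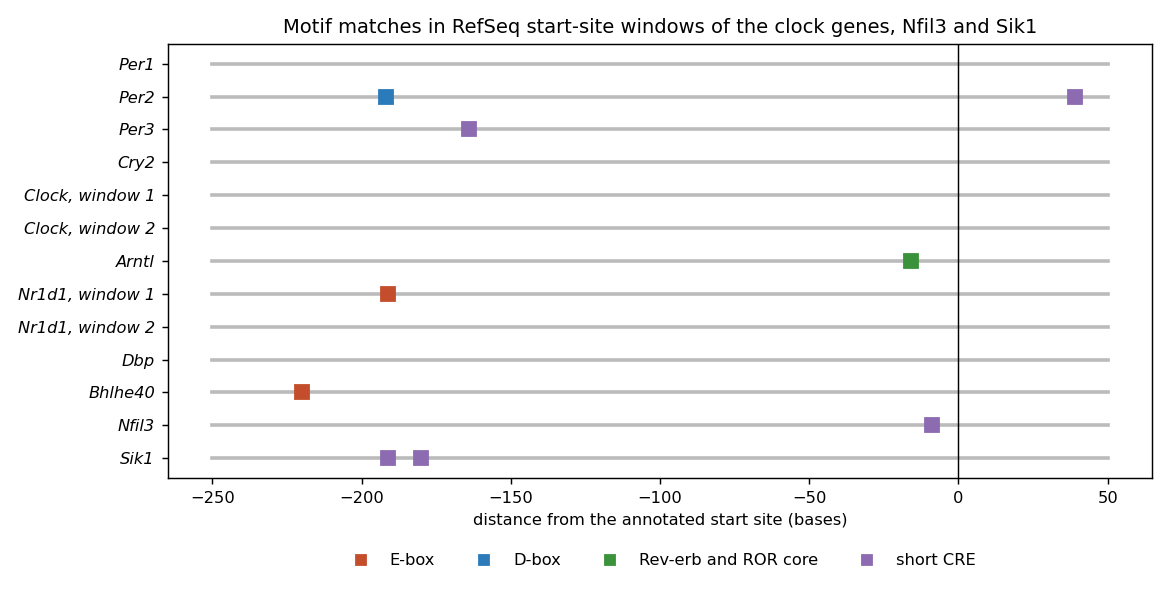
Motif matches in the RefSeq start-site windows of the clock genes and of Nfil3 and Sik1, with the distance from the annotated start site in bases on the horizontal axis and a gene window in each row; each square is a match on either strand. The E-boxes of Nr1d1 and Bhlhe40 sit at -191 and -220, the D-box of Per2 at -192, and the windows of Per1, Cry2, Clock and Dbp are empty.

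Some facts of the arrays bear on the members. Arrays of a group correlated at 0.984 to 0.996, and 72.4 to 77.9% of probes stood well above background on an array. Slide 1 carried an array of each group (the TTX and W45 arrays numbered 1 and the W15 array numbered 3). The other 2 TTX arrays were on slide 2, and the 4 remaining washout arrays on slide 3. W45 replicate 1 stood apart in its effect on the tests. In limma, 54 genes were called at 45 min against TTX with all arrays and 166 without that array, and 34 and 177 were called at 45 min against 15 min. It was the only W45 array on slide 1, so array and slide cannot be told apart in these counts. Neuronal markers were well above background on all 9 arrays for 11 of 11 genes, as were 7 of 8 astrocyte, 9 of 9 oligodendrocyte and precursor and 4 of 4 fibroblast markers. Of the microglial markers 2 of 8 were, with Aif1 and Cx3cr1 above background on no array, and of the endothelial markers 3 of 6, with Tek on none. The activity genes Fos, Arc, Egr1, Nr4a1 and Npas4 were all called higher at 45 min against TTX, with log2 fold changes of 6.61 for Fos, 5.32 for Arc, 4.20 for Egr1 and 4.20 for Nr4a1. Npas4 was very dim in TTX, at -8.68, -8.45 and -8.73. Its log2 fold change was 9.05 here and as low as 5.07 under alternative processing, so its size is not well measured.

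At 15 min after washout the clock genes were close to their levels in TTX. In limma, with Benjamini-Hochberg adjustment over all 25785 genes, 0 of the 10 members were called, against a background of 0.0233% of all genes, and 0 of 10 had an unadjusted p under 0.05 against 3.31%. None had its 3 W15 arrays all above its 3 TTX arrays, which 9.68% of all genes had. The members' log2 fold changes ran from -0.22 for Per1 to 0.19 for Nr1d1, with a median of 0.04, against 0.05 over all genes. The 95% interval of the fold change stayed within 1 log2 unit of no change for all 10 members, and within 0.5 for 6 of them. Fewer cells of a type and less RNA per cell cannot be told apart in such bulk RNA.

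At 45 min after washout Per1 had the largest difference among the members, 1.70-fold higher than in TTX, and Cry2 and Nr1d1 followed with 1.31-fold and 1.24-fold. None of these differences passed the adjusted threshold: 0 of 10 members were called by limma, against 0.209% of all genes. At an unadjusted p under 0.05 there were 2 members, Per1 and Nr1d1, against 6.32% of all genes. For 3 members, Per1, Cry2 and Nr1d1, the 3 W45 arrays all lay above the 3 TTX arrays, which 7.97% of all genes showed. The members' median log2 fold change was 0.14, against 0.05 over all genes. The interval stayed within 1 log2 unit for 9 of 10 members, Per1 being the exception, and within 0.5 for 5. The smallest rise that was called among all genes had a log2 fold change of 0.95.

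Between the washout times, 45 min against 15 min, 0 of 10 members were called, against 0.132% of all genes. Per1 was the 1 member with an unadjusted p under 0.05, against 6.62% of all genes, and the 1 member whose W45 arrays all lay above its W15 arrays, against 3.98%. The median log2 fold change was 0.11 over the members and 0.00 over all genes. The comparisons of W15 and of W45 with TTX share the 3 TTX arrays, and both washout groups enter the comparison with each other.

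**Figure D2:**
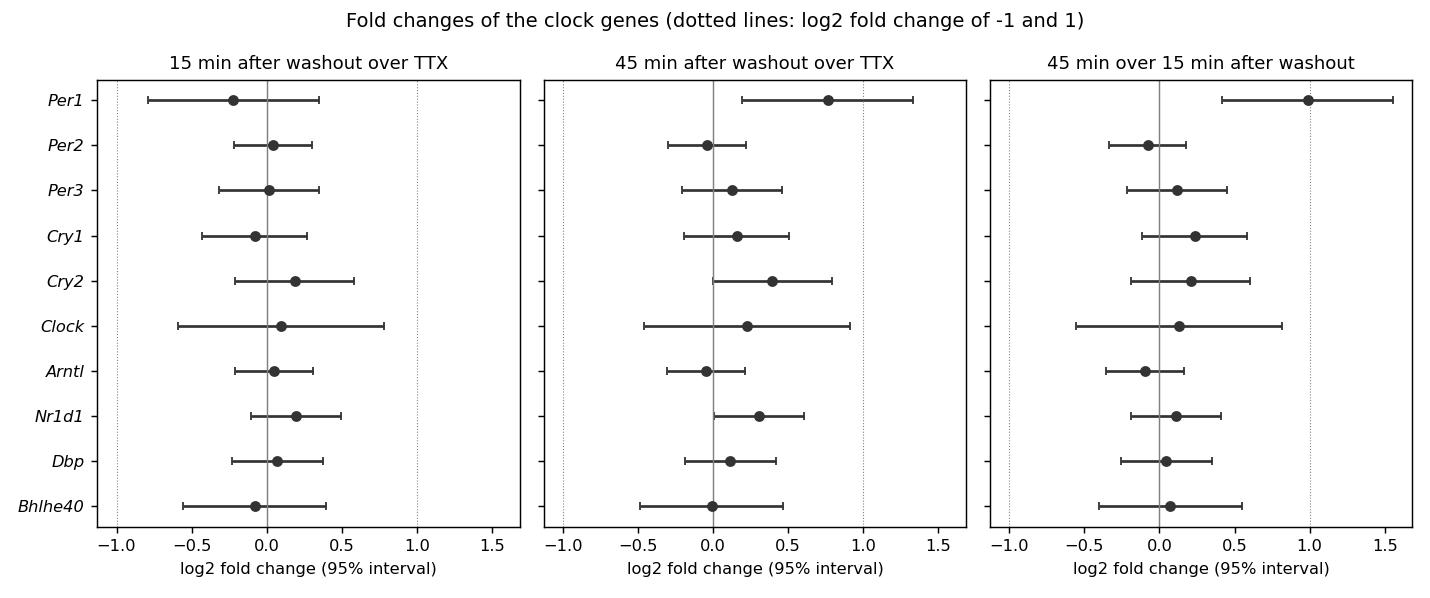
Log2 fold changes of the 10 clock genes (points) with their 95% intervals from limma (bars) in 3 comparisons; dotted lines mark log2 fold changes of -1 and 1. Per1 at 45 min stands to the right of the other members in the middle and right panels, at 0.76 over TTX and 0.99 over 15 min, and its intervals are the ones that pass the dotted line.

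Per1 encodes the repressor of the loop that is known for its fast response to stimulation. Its processed signal was 1171, 1143 and 1475 on the TTX arrays, 982, 970 and 860 on the W15 arrays and 1306, 1638 and 2623 on the W45 arrays, in replicate order. Relative to the 75th percentile, the log2 values were -0.64, -0.67 and -0.78 in TTX, -0.75, -0.85 and -1.15 at 15 min, and -0.50, 0.07 and 0.63 at 45 min. The W45 arrays all lay above the arrays of both other groups but were themselves spread widely, with replicate 3 at the top and replicate 1 near the TTX arrays. The group means were -0.70 ± 0.07 in TTX, -0.92 ± 0.21 at 15 min and 0.07 ± 0.56 at 45 min (SD, n = 3 each).

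In limma, Per1 differed by a log2 fold change of 0.76 ± 0.25 (SE) at 45 min against TTX, with a 95% interval of 0.19 to 1.33 and an adjusted p of 0.666 (unadjusted 0.0142). At 45 min against 15 min the difference was 0.99 ± 0.25, or 1.98-fold, with an interval of 0.42 to 1.56 and an adjusted p of 0.476 (unadjusted 0.00347). At 15 min against TTX it was -0.22 ± 0.25, with an adjusted p of 0.9996 and groups that overlapped. Ranked by unadjusted p over all 25785 genes, Per1 stood at place 550 at 45 min against TTX and at place 188 at 45 min against 15 min.

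The Per1 difference varied with the slide and with single arrays. On slide 1, with 1 array per group, Per1 at 45 min was 0.14 above TTX and 0.66 above 15 min on the log2 scale, and at 15 min 0.51 below TTX. On slide 3, with 2 arrays per group, it was 1.15 above 15 min, and no slide other than slide 1 held both W45 and TTX arrays. With the slide as a fixed block the difference at 45 min was 0.31 against TTX (unadjusted limma p of 0.344) and 0.99 against 15 min. Without W45 replicate 1, Per1 was called at 45 min against 15 min, with a log2 fold change of 1.27 and an adjusted limma p of 0.0365, while against TTX it was 1.04 with an adjusted p of 0.0712. That array was the only W45 array on slide 1, so array and slide cannot be told apart here. Without W45 replicate 3 the 2 differences were 0.70 and 0.48. W45 replicate 1 also had the lowest summed neuronal markers of its group, 6.62 against 6.99 and 6.96 on replicates 2 and 3, and the highest summed astrocyte markers, 6.64 against 6.21 and 6.23, as log2 of the summed relative signals. Over the groups these sums ran from 6.65 to 6.98 in TTX, 6.78 to 7.03 at 15 min and 6.62 to 6.99 at 45 min for neurons, and from 6.37 to 6.60, 6.44 to 6.56 and 6.21 to 6.64 for astrocytes. Of the other cell types, W45 replicate 1 was lowest of its group for microglia, at -2.40 against -1.91 and -1.40. It was also lowest for endothelium, at -2.09 against -1.74 and -1.79. For oligodendrocytes and precursors it was highest, at 5.90 against 5.70 and 5.64. For fibroblasts it lay between the others, at 0.68 against 0.70 and 0.35. The part of these sums in the Per1 values was not tested.

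**Figure D3:**
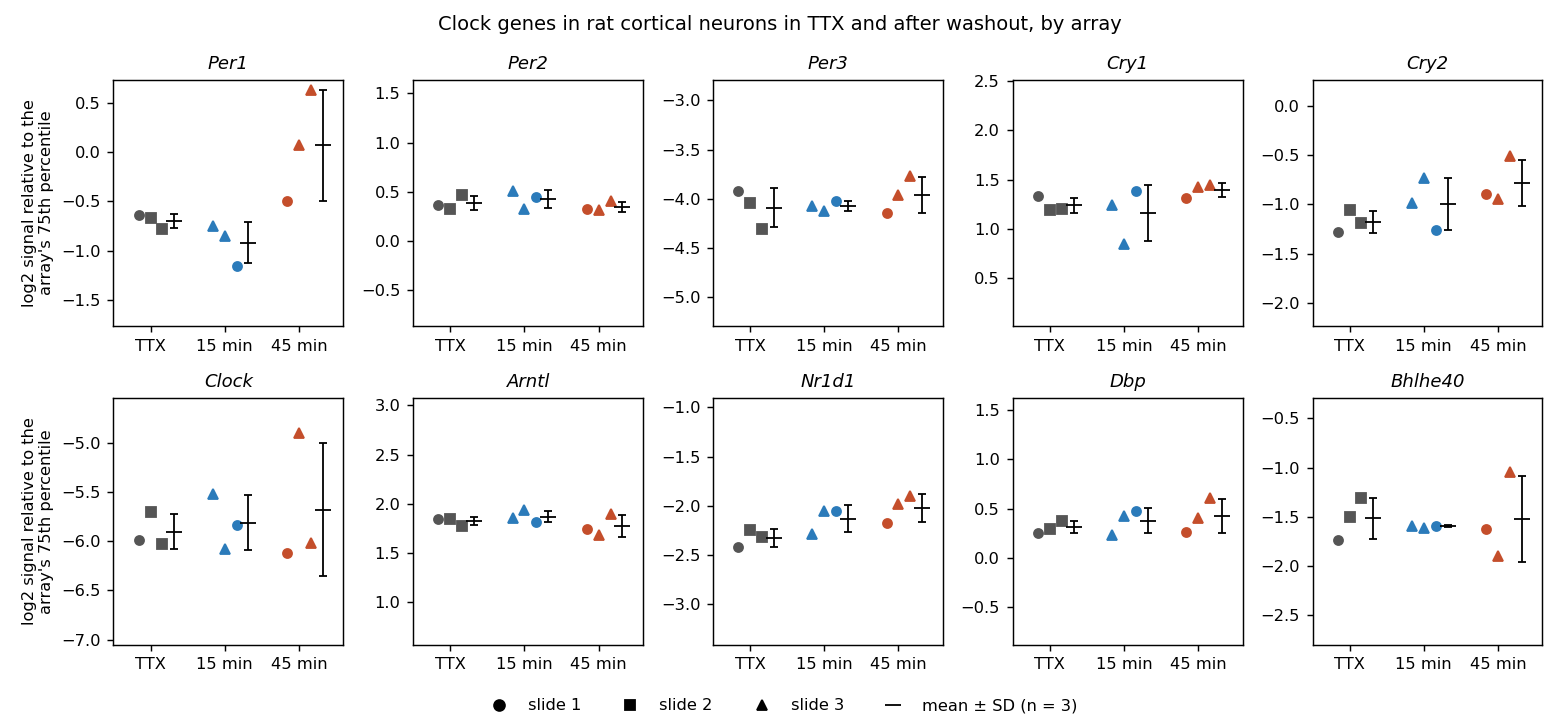
Log2 signal relative to the 75th percentile of the array for each of the 10 clock genes in TTX and at 15 and 45 min after washout; points are arrays, their shape gives the slide, and bars are mean ± SD of 3 arrays, with axes of equal span. Per1 at 45 min reaches 0.63 on 1 array of slide 3 and -0.50 on the array of slide 1, while Per2 and Arntl keep within a band of 0.20 and 0.25.

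Per2, the partner of Per1 in repression, stayed within a range of 0.20 log2 units over all 9 arrays. Its values were 0.37, 0.33 and 0.47 in TTX, 0.51, 0.33 and 0.45 at 15 min, and 0.33, 0.32 and 0.41 at 45 min. The groups overlapped in every comparison. At 45 min against TTX the log2 fold change was -0.04 ± 0.11 (SE), with a 95% interval of -0.30 to 0.22, and against 15 min it was -0.08 with an interval of -0.34 to 0.18. Per1 and Per2 thus had intervals at 45 min against 15 min that do not overlap, although the difference between the 2 genes was not itself tested.

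Per3, a further period gene, was measured by 3 probes, 1 of which was well above background on 0 of 9 arrays, at processed signals of 2.34 to 3.84. The brighter of the other 2 probes had means of -4.09 ± 0.20 in TTX, -4.07 ± 0.05 at 15 min and -3.96 ± 0.19 at 45 min (SD, n = 3 each). Its log2 fold change at 45 min against TTX was 0.13 ± 0.15, with overlapping groups. The dimmer probe, which shares the 22-base run printed above, gave -0.09 ± 0.30, and its W45 arrays were spread from -6.45 to -5.08. The 2 probes therefore had opposite signs at 45 min, each within its error.

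The cryptochromes bind the PER proteins in the repressor complex. Cry2 had values of -0.90, -0.94 and -0.51 at 45 min, against -1.28, -1.06 and -1.19 in TTX. Its W45 arrays all lay above its TTX arrays, by a narrow margin between -0.94 and -1.06. The log2 fold change was 0.39 ± 0.18 (SE), with an interval of -0.0012 to 0.79 and an adjusted limma p of 0.780 (unadjusted 0.0506). At 15 min the Cry2 arrays ran from -1.26 to -0.73 and overlapped both other groups. On slide 1 alone Cry2 at 45 min was 0.39 above TTX, close to the difference over all arrays.

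Cry1 had means of 1.24 ± 0.08 in TTX, 1.16 ± 0.28 at 15 min and 1.39 ± 0.07 at 45 min (SD, n = 3 each). The spread at 15 min came with W15 replicate 2 at 0.84, while the other 2 W15 arrays were at 1.24 and 1.39. Cry1 at 45 min was 0.16 ± 0.15 (SE) above TTX and 0.24 ± 0.15 above 15 min on the log2 scale, with overlapping groups in both comparisons.

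The activator genes showed no called difference. Arntl, the partner of Clock, ranged over 0.25 log2 units on the 9 arrays, with means of 1.82 ± 0.04 in TTX, 1.87 ± 0.06 at 15 min and 1.77 ± 0.11 at 45 min (SD, n = 3 each). Its log2 fold change at 45 min against TTX was -0.05 ± 0.12 (SE), with an interval of -0.31 to 0.21. Clock was measured by a dim probe, with processed signals of 25.9 to 52.2, and had the widest intervals of the members. Its values were -6.12, -4.90 and -6.02 at 45 min, against -5.99, -5.70 and -6.03 in TTX, so that W45 replicate 2 alone lay above the TTX arrays. The Clock fold change at 45 min against TTX was 0.23 ± 0.30, with an interval of -0.46 to 0.91, which leaves the log2 fold change of the Clock transcript the least well measured of the 10.

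Nr1d1, the repressor of Arntl, had values of -2.17, -1.98 and -1.90 at 45 min, against -2.42, -2.24 and -2.31 in TTX. The 2 groups did not overlap, with a gap between -2.17 and -2.24. The W15 arrays, at -2.29, -2.05 and -2.05, overlapped both groups. The log2 fold change at 45 min against TTX was 0.31 ± 0.13 (SE), with an interval of 0.01 to 0.61 and an adjusted limma p of 0.780 (unadjusted 0.0455). At 15 min against TTX it was 0.19 ± 0.13, and at 45 min against 15 min 0.11 ± 0.13. On slide 1 the W45 array was 0.24 above the TTX array and the W15 array 0.37 above it.

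Dbp, the output activator at D-boxes, had means of 0.31 ± 0.06 in TTX, 0.38 ± 0.13 at 15 min and 0.42 ± 0.17 at 45 min (SD, n = 3 each), with overlapping groups throughout. Its log2 fold change at 45 min against TTX was 0.12 ± 0.13 (SE). Bhlhe40, the E-box repressor, had values of -1.63, -1.90 and -1.05 at 45 min, against -1.73, -1.50 and -1.31 in TTX, while its 3 W15 arrays lay between -1.61 and -1.59. The W45 arrays of Bhlhe40 held both the lowest and the highest of its 9 values. Its log2 fold change at 45 min against TTX was -0.01 ± 0.21, with an interval of -0.48 to 0.47.

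In the order of their group means, Cry2, Nr1d1, Dbp, Clock and Per3 ran from TTX through 15 min to 45 min, Per1 and Cry1 had 15 min lowest and 45 min highest, Per2 and Arntl had 45 min lowest and 15 min highest, and Bhlhe40 had 15 min lowest and TTX highest. For 7 members, all but Per1, Cry2 and Nr1d1, the distance between the lowest and the highest group mean was smaller than the largest SD within a group, so their order is not resolved. For Per1 that distance was 0.99 with a largest SD of 0.56, for Cry2 0.39 with 0.26, and for Nr1d1 0.31 with 0.14. The place of the 15 min group was not resolved for Per1, Cry2 and Nr1d1 either. Its arrays overlapped those in TTX for Per1, and both other groups for Cry2 and Nr1d1.

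The rest of the loop and its outputs were followed with a list of 24 further clock genes, of which 20 were on the array and 19 were tested. Nfil3, which encodes E4BP4, the repressor that competes with DBP at D-boxes, was the 1 gene of the list that was called. Over all genes 0.209% were called at 45 min against TTX and 0.132% at 45 min against 15 min. Nfil3 had values of 1.50, 1.94 and 1.46 at 45 min, against -0.32, 0.14 and -0.01 in TTX, and the groups lay far apart. It rose 3.23-fold, a log2 fold change of 1.69 ± 0.20 (SE), with an adjusted limma p of 0.0101. Against 15 min the rise was 1.50 ± 0.20 (adjusted p of 0.0268), and at 15 min against TTX the difference was 0.20 ± 0.20. The call against TTX was lost with no scaling between arrays (1.43, adjusted p of 0.058), with the slide as a fixed block (1.87, adjusted p of 0.287), and without TTX replicate 1 or 3. The call against 15 min held in 11 of 22 alternative fits, with log2 fold changes of 1.34 to 1.64 over all of them. On slide 1 alone Nfil3 at 45 min was 1.81 above TTX. The median log2 fold change of the list at 45 min against TTX was 0.03, against 0.05 over all genes.

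Of the other list members, Usp2, a deubiquitinase under clock control, had the smallest p, with a log2 fold change of 0.42 ± 0.13 (SE) at 45 min against TTX and an adjusted limma p of 0.631. Its W45 arrays, at -1.48, -1.56 and -1.53, all lay above its TTX arrays, at -1.75, -1.99 and -2.09, as they did for 7.97% of all genes. The log2 fold changes were -0.47 ± 0.24 for Tipin, -0.32 ± 0.31 for Nr1d2, the paralogue of Nr1d1, and 0.27 ± 0.18 for Btrc, a subunit of the ubiquitin ligase that acts on PER proteins. None of these 3 passed the threshold.

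The signal route to the Per promoters was followed with 19 genes around CREB, of which 18 were tested and 0 were called in any comparison. Over all genes 0.0233% were called at 15 min against TTX, 0.209% at 45 min against TTX and 0.132% at 45 min against 15 min. At an unadjusted limma p under 0.05, 2 of the 18 were higher and 1 lower at 45 min against TTX. Of all genes 6.32% passed that threshold in either direction. Sik1, a kinase that phosphorylates the coactivators of CREB and is itself a CREB target, had values of 2.84, 3.93 and 4.24 at 45 min, against 2.97, 2.84 and 2.50 in TTX. W45 replicate 1 was the lowest of its group for Sik1, as it was for Per1. For Sik1 it lay among the TTX arrays, while for Per1 it lay above them. The Sik1 fold change was 0.90 ± 0.33 (SE) on the log2 scale, with an adjusted limma p of 0.717. Crem, a CREB family member with activator and repressor forms, was 0.44 ± 0.13 (adjusted p of 0.631), and Atf1, another member of the family, -0.67 ± 0.14 (adjusted p of 0.233). Rps6ka5, a kinase that phosphorylates CREB, was -0.30 ± 0.43. The median of the list was 0.04, against 0.05 over all genes.

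The windows of Nfil3 and Sik1 are shown for the short CRE, in capitals; it reads CGTCA where it lies on the opposite strand. As given above, 21.2% of all windows hold it.
Nfil3, chr17:12432347-12432375, plus strand, GRCr8: tttccaagttagatggcaaaTGACGgaag
Sik1, chr20:9958802-9958846, minus strand, GRCr8: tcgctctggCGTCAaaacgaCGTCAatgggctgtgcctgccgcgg

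The short CRE of Nfil3 lay at -9, and those of Sik1 at -191 and -180 from the start site of their windows.

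Per1 had the smallest adjusted p of the members, so the genes most like it were looked for among 3014 genes with a symbol and a range of at least 1 log2 unit over the 9 arrays. The 5 highest Pearson correlations over the 9 arrays were 0.954 for Cebpb, 0.951 for Ppp4r4, 0.951 for Sik1, 0.940 for Pi4kb and 0.938 for Hs3st1. The 9 arrays share slides and scaling, and the correlations are given as a description. The same measure with Per1 was 0.781 for Nr4a1, 0.664 for Arc, 0.603 for Egr1, 0.510 for Npas4 and 0.395 for Fos. Cebpb, which encodes a leucine zipper transcription factor, had a log2 fold change of 0.57 at 45 min against TTX and -0.22 at 15 min against TTX. The same pair of values was 0.80 and -0.41 for Ppp4r4, 0.43 and -0.09 for Pi4kb, and 0.65 and -0.05 for Hs3st1. All 5 genes thus had a positive difference at 45 min and a negative one at 15 min, as Per1 did with 0.76 and -0.22, a likeness that the choice by correlation favours.

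**Figure D4:**
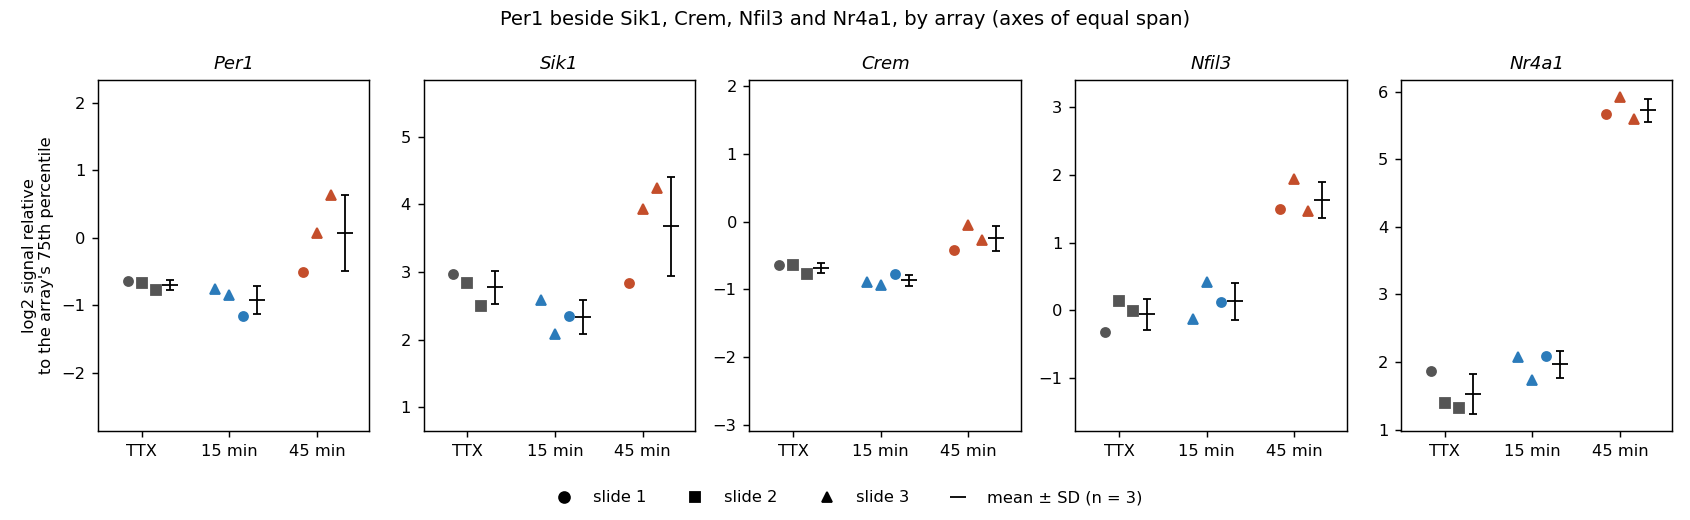
Log2 signal relative to the 75th percentile of the array for Per1, Sik1, Crem, Nfil3 and Nr4a1 in TTX and at 15 and 45 min after washout; points are arrays, their shape gives the slide, bars are mean ± SD of 3 arrays, and the axes have equal span. The 45 min arrays of Per1 and Sik1 are spread, with the array of slide 1 lowest at -0.50 and 2.84, while those of Nfil3 and Nr4a1 lie close together.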

How the data were processed

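RNA of 9 samples (500 ng per labelling, per the labels' protocols) was measured on 1-colour Agilent rat arrays, and the files were made with Feature Extraction 9.5.3.1, per the file headers (9.5 per the submitters' processing notes). The deposited values are Cy3 spot intensities, and the processed signal that the authors deposited is the intensity after background subtraction, unscaled between arrays. The deposited value table held the same intensity values (largest difference 5.8e-10). Here 1639 control spots of 45018 and the outlier spots (49 to 111 per array) were left out, and spots of a probe were averaged. The log2 signal minus that of the 75th percentile of the array (1563 to 2526) was analysed. Probes that all 3 arrays of some group measured well above background were kept (30321 probes), and the brightest kept probe stood for its gene. Names came from the files and the RefSeq table of GRCr8.

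A single limma 3.58.1 fit (R 4.3.3) took all 9 arrays (lmFit, eBayes, two-sided, Benjamini-Hochberg over 25785 genes, threshold 0.05). The fit was also run on simulated data with independent noise and no slide or replicate effect, which does not cover the slide layout here. That check did not require calls at changes as small as that of Per1. Precision is limited by 3 arrays per group, and an exact permutation of 3 against 3 cannot go below a p of 0.1. Slide is in part confounded with group. The deviations of same-numbered arrays from their group means correlated at 0.29, 0.39 and 0.23 between W15 and TTX. The correlations were 0.26, 0.37 and 0.12 between W45 and TTX, and 0.06, 0.18 and 0.15 between W45 and W15. Correlations of differently numbered arrays were not set beside them, so whether the numbers mark pairs was not settled. The values reported are from the fit without a replicate block, and the block was run as an alternative. Members and lists were chosen with earlier results of these data known. The named genes are the members, the called members and up to 4 others (by size at 45 min against TTX) of the 2 lists, 5 activity genes and the 5 genes most correlated with the member of smallest adjusted p. Alternatives covered scaling, background, filters, probe choice, the spread estimate, slide, replicate block and leaving out each array. Sequences are from the array files and RefSeq (GRCr8). Figures were drawn with matplotlib 3.10.9.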

Additional observations from a re-analysis of the deposited data

Results flagged for a closer look

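Several genes differed between the 2 times after washout. At 45 min against 15 min, limma called Nr4a1 (log2 fold change 3.76), Arc (3.64), Npas4 (3.35), Egr1 (2.09) and Nfil3 (1.50). The first 4 are activity genes, and Nfil3 is the repressor of D-box genes. Over all genes 0.132% were called in this comparison. The other activity gene, Fos, was not called (1.74, adjusted limma p of 0.185). The call of Nfil3 held in 11 of 22 alternative fits.

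Per1, Sik1, Crem, Cebpb, Hs3st1 and Ppp4r4 had all 3 arrays at 45 min above the TTX mean and all 3 at 15 min below it. This pattern was looked for only among the named genes, and its share over all genes was not counted. The looser condition, all W45 arrays above all W15 arrays, held for 3.98% of all genes. The differences between the times were 0.99 for Per1, 1.34 for Sik1, 0.62 for Crem, 0.79 for Cebpb, 0.70 for Hs3st1 and 1.21 for Ppp4r4 on the log2 scale. In limma none of these 6 differences passed the adjusted threshold with all arrays, and Cebpb, Hs3st1, Ppp4r4 and Sik1 were named for their likeness to Per1, so their patterns are not independent of its own.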

How the results depend on the processing

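Over 23 alternatives the members' fold changes gave 670 values, 640 of them with a test, and 1 was called. That was Per1 at 45 min against 15 min without W45 replicate 1, so leaving out 1 array gave 0 to 1 members called in that comparison. Of the 670 values 56 changed sign, and Per1 alone changed sign in none. The signs of Per1 at 45 min therefore hold throughout, but its size did not: 0.14 to 1.04 against TTX and 0.66 to 1.27 against 15 min. Without scaling the median of all genes shifted to -0.21 at 45 min against TTX and -0.15 at 15 min, and values under that setting carry this shift. The calls over all genes varied as single arrays were left out: 29 to 166 at 45 min against TTX and 18 to 177 at 45 min against 15 min, set beside 54 and 34 with all arrays. The counts of 166 and 177 came without W45 replicate 1, the only W45 array on slide 1, so array and slide cannot be told apart there. In the other direction, some alternatives gave fewer calls at 45 min. Against TTX there were 31 with no scaling and 36 with no filter. With only the 2 groups compared there were 31, and with the slide as a fixed block 22. Against 15 min there were 20 with no filter, 19 with only the 2 groups compared and 0 on slide 3. With the slide as a random block the counts were 54 against TTX and 33 against 15 min, beside 54 and 34 without a block. At 15 min against TTX 6 genes were called, 10 with a trended and robust spread, 9 with only the 2 groups compared, 0 with the slide as a fixed block and 2 to 8 leaving out an array.

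The count of the further clock genes called, 1 at 45 min against TTX, was 0 with no scaling and with the slide as a fixed block, and 0 to 1 leaving out an array (0 without TTX replicate 1 or 3). At 45 min against 15 min it was 0 with no scaling, no filter, only the 2 groups compared, the slide as a fixed block and slide 3 only, and 0 to 1 leaving out an array. Nfil3 was called in 17 of 21 fits against TTX and 11 of 22 against 15 min. The CREB list had 0 to 1 calls leaving out an array, the 1 being Sik1 without W45 replicate 1 in both comparisons of 45 min.

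The replicate block changed no call of a member: Per1 was 0.76 at 45 min against TTX (adjusted limma p of 0.556) and 0.99 against 15 min (0.494), and all genes called were 47 against TTX and 27 against 15 min.

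All sign changes that follow were of uncalled values. With quantile scaling, at 15 min against TTX Clock was -0.012 and Per3 -0.058, and at 45 min against TTX Bhlhe40 was 0.0055. With no scaling, at 15 min against TTX Arntl was -0.15, Btrc -0.081, Clock -0.11, Cry2 -0.015, Dbp -0.13, Nfil3 -0.0032, Nr1d1 -0.0055, Per2 -0.16 and Per3 -0.19. At 45 min, also with no scaling, Clock was -0.034, Cry1 -0.10, Dbp -0.14 and Per3 -0.13 against TTX, and Dbp -0.016 against 15 min. With normexp background correction, Hs3st1 was 0.0072 at 15 min against TTX, Arntl 0.048, Clock -0.058 and Per2 0.12 at 45 min against TTX, and Bhlhe40 -0.15, Arntl 0.038 and Clock -0.077 at 45 min against 15 min. With the mean of all kept probes, Per3 was -0.018 at 45 min against 15 min. With the slide as a fixed block, Bhlhe40 was 0.085, Arntl -0.021, Clock -0.058, Per3 -0.22 and Tipin 0.36 at 15 min against TTX, and Bhlhe40 0.16, Per3 -0.11 and Pi4kb -0.082 at 45 min against TTX. On slide 1 alone, where nothing was tested, the sign turned for several genes. There the log2 difference of Bhlhe40 was 0.14, Arntl -0.030, Cry1 0.058 and Per3 -0.11 at 15 min against TTX, Bhlhe40 0.10, Clock -0.13, Cry1 -0.018, Per3 -0.22 and Sik1 -0.13 at 45 min against TTX, and Bhlhe40 -0.034, Clock -0.28, Cry1 -0.076, Dbp -0.22, Nr1d1 -0.12 and Per3 -0.12 at 45 min against 15 min. Btrc, Nr1d2, Pi4kb, Rps6ka5, Tipin and Usp2 also turned there in at least 1 comparison.

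Leaving out 1 array, values at 15 min against TTX ran from -0.19 to 0.021 for Bhlhe40, -0.052 to 0.23 for Clock, -0.19 to 0.077 for Cry1, -0.0024 to 0.091 for Per2, -0.095 to 0.098 for Per3, -0.20 to 0.011 for Pi4kb and -0.16 to 0.020 for Tipin. At 45 min against TTX they ran from -0.25 to 0.18 for Bhlhe40, -0.16 to 0.45 for Clock, -0.53 to 0.077 for Nr1d2 and -0.71 to 0.21 for Rps6ka5, and at 45 min against 15 min from -0.17 to 0.26 for Bhlhe40, -0.25 to 0.35 for Clock and -0.046 to 0.12 for Dbp. The cause of these changes was not tested. Dim signal limits Clock and Per3, and 3 arrays per group limit all intervals.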
